A study of Mus musculus with 20 samples.

Results

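Time point 2 of a glutamine experiment on Hepa1-6 cells, a mouse hepatoma line, was measured on 2 of the 20 spotted DNA arrays in the series, and both were used here (array 1, and array 2, whose title carries an r). Each array paired RNA of flasks with varied glutamine, labelled with Cy5, with RNA of flasks at constant glutamine, labelled with Cy3. Per the labels, the varied flasks were switched between 0 and 4 mM glutamine when medium was renewed at the start and at 24, 48 and 72 h of a 96 h course, and the constant flasks had 4 mM at each renewal. Both kinds of flask were confluent at the start and had the same high-glucose medium and serum replacement. The hour of time point 2, and hence the glutamine level in its varied flask, is not stated in the labels, so no level was assigned. It is not known whether array 2 repeats the hybridisation of array 1 or holds RNA of another flask, so that spread between the arrays, and p-values resting on it, may be technical. The limits of the model are those of 1 established tumour line in culture.

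A value here is the deposited ratio, read as log2 with base 2 as an assumption, minus the median of its array. Positive values likely mark a higher RNA level in glutamine-varied flasks, since the labels name that RNA as channel 1. No array had its dyes exchanged. A steady dye preference of a gene and a steady difference between the kinds of flask therefore cannot be told apart in a comparison with 0, whereas both cancel in a difference between time points. Array 1 gave a value on 6333 of 17280 spots (36.6%) and array 2 on 5763 (33.4%), with deposited medians of 0.25 and 0.33. After probes of a gene were averaged, 4837 genes had a value on both arrays, out of 11770 with a value anywhere in the series, and these are the genes described. Of them 4280 had a symbol and 557 were unnamed probes. A change in RNA per cell and a change in the make-up of the culture cannot be told apart in such whole-flask samples.

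Glutamine feeds the tricarboxylic acid cycle through glutamate and donates nitrogen for nucleotides, amino sugars and other amino acids. When an amino acid runs short, the kinase GCN2 slows translation and raises the transcription factor ATF4, which switches on genes of amino acid synthesis and uptake. Glutamine scarcity also bears on the growth kinase complex mTORC1 and, through protein glycosylation, on folding in the endoplasmic reticulum, where the chaperone Hspa5 (BiP) is a classical responder to stress.

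Promoters of 4 genes on which the results turn are printed 5′ to 3′, as windows of 300 bases around the annotated start that RefSeq gives for GRCm38.p6. Nfia had the highest and Pacc1 the lowest mean at time point 2. Hspa5 was the only measured endoplasmic reticulum chaperone gene past the test, and Dzip3 was higher than at the other time points. Capitals mark matches to motifs searched on both strands. Those with a match were the CCAAT box, which reads ATTGG on the other strand, the TATA box TATAAA, the Sp1 site GGGCGG, and the endoplasmic reticulum stress element. The last is a CCAAT and a CCACG with 9 bases of any kind between them, so that it overlaps a CCAAT box. The core of the amino acid response element, the cyclic AMP response element and the E-box were also searched and had no match in these windows. Nfia lies at chr4:97581693-97581992 on the plus strand, Pacc1 at chr1:191325652-191325951 on the plus strand, Hspa5 at chr2:34771840-34772139 on the plus strand, and Dzip3 at chr16:48994093-48994392 on the minus strand. An overlapping window of Dzip3 at chr16:48994063-48994362, also with a CCAAT box, is not printed.
Nfia: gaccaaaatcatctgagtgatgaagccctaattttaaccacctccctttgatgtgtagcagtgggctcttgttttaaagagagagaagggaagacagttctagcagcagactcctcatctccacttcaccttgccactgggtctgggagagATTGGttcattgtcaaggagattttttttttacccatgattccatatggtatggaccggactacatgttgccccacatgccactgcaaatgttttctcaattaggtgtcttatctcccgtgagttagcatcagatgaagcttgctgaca
Pacc1: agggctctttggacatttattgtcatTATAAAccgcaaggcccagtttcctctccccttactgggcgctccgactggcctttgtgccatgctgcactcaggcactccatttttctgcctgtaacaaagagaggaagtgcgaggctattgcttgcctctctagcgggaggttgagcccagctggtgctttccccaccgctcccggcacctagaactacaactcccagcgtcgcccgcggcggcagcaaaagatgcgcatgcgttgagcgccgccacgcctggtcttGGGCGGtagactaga
Hspa5: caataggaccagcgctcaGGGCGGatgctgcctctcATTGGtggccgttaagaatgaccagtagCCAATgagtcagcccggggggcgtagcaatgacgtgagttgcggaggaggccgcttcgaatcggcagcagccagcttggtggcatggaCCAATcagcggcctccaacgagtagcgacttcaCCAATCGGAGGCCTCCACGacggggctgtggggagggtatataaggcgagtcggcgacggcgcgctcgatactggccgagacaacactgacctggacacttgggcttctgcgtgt
Dzip3: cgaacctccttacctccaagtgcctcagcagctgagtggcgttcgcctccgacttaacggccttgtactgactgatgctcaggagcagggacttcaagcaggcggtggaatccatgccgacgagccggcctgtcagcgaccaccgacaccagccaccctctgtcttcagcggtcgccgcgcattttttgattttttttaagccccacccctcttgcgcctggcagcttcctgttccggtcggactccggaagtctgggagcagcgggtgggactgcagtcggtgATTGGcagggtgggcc
The stress element was found in the Hspa5 window, and in 10 of the 4359 promoters of the genes tested (0.229%) against 39 of the 32851 promoters in the whole table (0.119%). CCAAT, seen in the Nfia, Hspa5 and Dzip3 windows, was in 38.1% and 37.4% of these 2 sets, and GGGCGG, seen in the Pacc1 and Hspa5 windows, in 53.6% and 35.7%. TATAAA, seen in the Pacc1 window, was in 10.1% and 13.6%. A match describes letters only.

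Most genes lay close to the array median at time point 2, and the arrays shared a moderate part of their pattern. Across the 4837 genes, which are not independent replicates, array 1 and array 2 correlated with Pearson's r = 0.520 and Spearman's rho = 0.514, and 66.2% of genes had the same sign on both. The difference between the arrays gave a spread of 0.180 (log2 scale) per single array. Among 3500 genes with a mean within 0.25 of the median, 54.1% had the same sign on both arrays. Of 1198 genes between 0.25 and 0.5 it was 97.5%, a share that choosing genes by the mean of the same arrays largely sets. Beyond 0.75 lay 17 genes, 4 likely higher and 13 likely lower in glutamine-varied flasks.

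Much of what the arrays shared was present at other time points too. Among 3765 genes that also had a value at each of the other time points with paired arrays (1, 3, 4, 7, 8 and 9), r was 0.504. It was 0.231 after each gene's mean over those 6 time points was subtracted. Treated in the same way, the paired arrays of time points 1, 3, 4, 7, 8 and 9 gave r of 0.312, 0.478, 0.281, 0.599, 0.345 and 0.323, so time point 2 had the lowest of these 7 values. It also had the smallest spread of gene means, with an SD of 0.225, against a range of 0.242 to 0.390 at the other 6. Array 1 correlated more closely with both arrays of time point 1 (r = 0.582 and 0.648) and time point 4 (0.652 and 0.682) than with array 2 (0.520). The same was so for the first array of time point 3 (r = 0.557). Array 2 correlated more closely with the first arrays of time points 3 (r = 0.569) and 4 (r = 0.537) than with array 1.

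**Figure D1:**
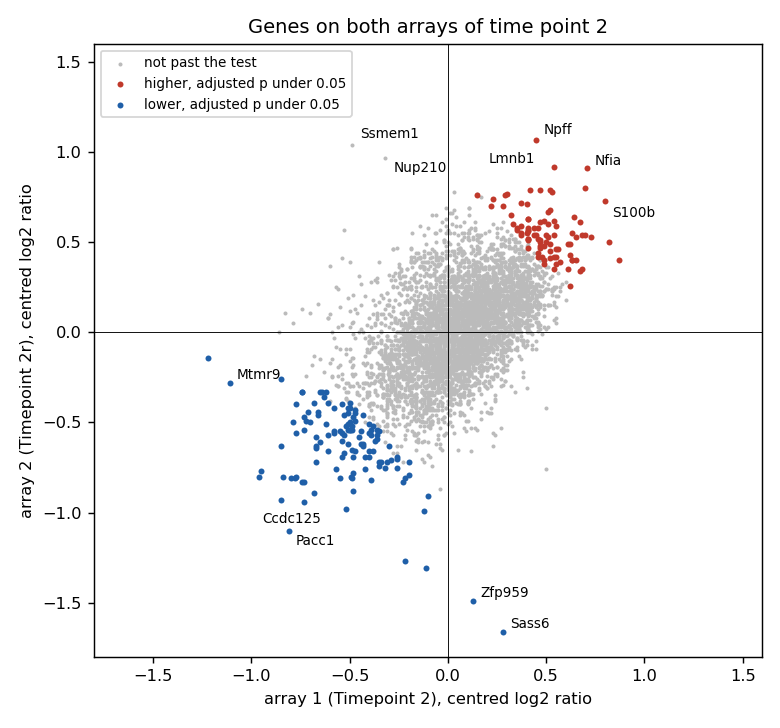
Each point is a gene, with its centred log2 ratio on array 1 along x and on array 2 along y. Genes past the limma test at an adjusted p of 0.05 are red (likely higher in glutamine-varied flasks) or blue (likely lower). Ssmem1, Nup210, Zfp959 and Sass6 show opposite signs on the arrays.

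A few genes differed strongly between the arrays. Sass6, a centriole assembly gene, had 0.28 on array 1 and -1.66 on array 2, and the zinc finger gene Zfp959 had 0.13 and -1.49. Both passed the test given next on their mean, with array 1 above 0, and that test takes its spread from all 7 time points and, after moderation, from all genes. Ssmem1 had -0.49 and 1.04, Nup210, a nuclear pore gene, had -0.32 and 0.97, and Sertad1 had 0.50 and -0.76, and none of these 3 passed the test.

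At time point 2, 89 genes were likely higher and 122 likely lower in glutamine-varied than in constant flasks, among 4837 tested. These are 1.84% and 2.52% of the genes, 4.36% together, at a Benjamini-Hochberg adjusted p under 0.05 in limma. In this comparison with 0, a steady dye preference of a gene cannot be told apart from a steady difference between the flasks. The higher genes had a median of 0.51 and the lower ones of -0.55. Both arrays had the same sign in 209 of the 211, which choice by the mean again largely sets. The smallest change called was 0.44, with a median standard error of 0.141 over all genes. The spread came from 14 arrays of 7 time points. With all 20 arrays no gene was called in limma (542 at an unadjusted p under 0.05), and without array 1 or array 2 there were 28 or 1. The split between directions moved with the scaling, to 153 higher and 103 lower when each block of 540 probe numbers was centred, to 280 and 250 after quantile normalization, and to 2316 and 21 without centring.

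The highest genes were of varied function. Nfia, a transcription factor of the nuclear factor I family, had 0.71 on array 1 and 0.91 on array 2, a mean of 0.81 ± 0.14 (SD, n = 2; adjusted p = 0.000154). S100b, a calcium-binding protein, had 0.80 and 0.73 (adjusted p = 0.000241). Npff, the precursor of neuropeptide FF, had 0.45 and 1.07 (adjusted p = 0.000455). Both arrays of each gene lay above 0, and those of Npff were farthest apart. Utp6, which acts in processing of ribosomal RNA, had 0.70 and 0.80 (adjusted p = 0.000303). Lmnb1, which encodes lamin B1 of the nuclear lamina, had 0.54 and 0.92 (adjusted p = 0.000521).

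Hspa5, the endoplasmic reticulum chaperone, had 0.64 on both arrays (adjusted p = 0.0162). Dnajb6, a co-chaperone of the Hsp40 family, had 0.53 and 0.78 (adjusted p = 0.00233), and Telo2, a co-chaperone for kinases related to mTOR, had 0.52 and 0.79 (adjusted p = 0.00413). All 3 were above 0 on both arrays. Hoga1, a mitochondrial aldolase of hydroxyproline breakdown, had 0.82 and 0.50, and Mff, the mitochondrial fission factor, had 0.73 and 0.53. Mas1, a receptor of the renin-angiotensin system, had 0.70 and 0.54. Nfam1, an activating receptor of immune cells, had 0.47 and 0.79. The other 3 of the 15 highest were Kctd2, an adaptor of a ubiquitin ligase, 1810009A15Rik and unnamed probe 9434, with means of 0.61 to 0.64. Adjusted p-values of these 7 genes lay between 0.00251 and 0.0064.

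The lowest genes went further from 0 than the highest. Pacc1, a proton-activated chloride channel, had -0.81 on array 1 and -1.10 on array 2, a mean of -0.96 ± 0.21 (SD, n = 2; adjusted p = 5.23e-05). Ccdc125 had -0.85 and -0.93 (adjusted p = 0.000154), and Arsk, a lysosomal sulfatase, had -0.96 and -0.80 (adjusted p = 0.000345). Jarid2, a partner of Polycomb repressive complex 2, had -0.95 and -0.77 (adjusted p = 0.000154). Sf3b6, a splicing factor of the U2 particle, had -0.73 and -0.94 (adjusted p = 0.000154). In each of these 5 genes both arrays were below -0.7. Jarid2 had a value on 9 and Sf3b6 on 8 of the 20 arrays.

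Nprl2, a subunit of the GATOR1 complex that holds mTORC1 off when amino acids are scarce, had -0.73 and -0.83 (adjusted p = 0.000241). Epm2a, which encodes the glycogen phosphatase laforin, had -0.80 and -0.81 (adjusted p = 0.000183). Mcee, an epimerase that leads propionate carbon to the tricarboxylic acid cycle, had -0.22 and -1.27 (adjusted p = 0.00351), so that its call rests on array 2. The remaining 7 were Copz2 (a vesicle coat subunit), Pou6f1 (a transcription factor), Dlg4 (a synaptic scaffold), Acrbp (an acrosin-binding protein), Oxnad1, Cyth1 (an exchange factor for ARF proteins) and Cit (citron kinase). Their means ran from -0.82 to -0.74 with adjusted p-values of 0.000241 to 0.000409, and both arrays of each were at or below -0.52. Oxnad1 had a value on 4 of the 20 arrays and Cyth1 on 8.

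**Figure D2:**
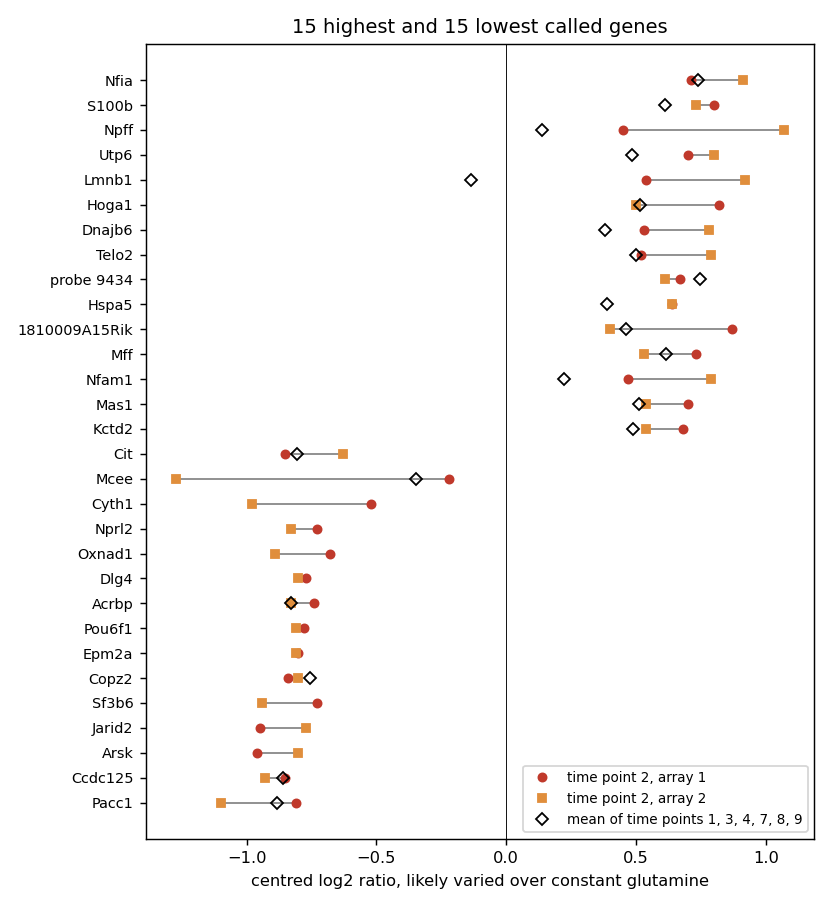
Centred log2 ratios of the 15 highest (top) and 15 lowest (bottom) called genes, with array 1 of time point 2 as circles, array 2 as squares, and the mean of time points 1, 3, 4, 7, 8 and 9 as diamonds. No diamond is drawn where a gene lacked a value at one of those time points, and most diamonds lie on the same side of 0 as time point 2.

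How often a gene was measured moved with its direction. Genes with a value on 19 arrays had a median of 0.15 at time point 2, with 56 called higher and 16 lower out of 1529. Genes with a value on 2 to 10 arrays had a median of -0.17, with 0 higher and 32 lower out of 351. With genes on all 14 arrays of the fit alone, 157 were called, 136 higher and 21 lower. Position on the array moved with the values as well, since 14.8% and 18.5% of the variance of arrays 1 and 2 lay between 32 blocks of probe numbers. After block centring, 117 of the 211 calls were kept, and among the genes named 14 of the 15 highest (all but Hspa5) and all 15 lowest. The part of missing spots in the calls was not tested. In 97 genes with exactly 2 probes measured on both arrays, the probes correlated with r = 0.0978, and 54.6% had the same sign. For the mean of the 14 arrays of the fit, r between probes was 0.184. The 15 highest and 15 lowest called genes each had 1 measured probe at time point 2. The same holds for the genes named in the differences between time points. Their values therefore could not be checked against a second probe. The cause of the low correlation was not tested.

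Of 19 measured genes of amino acid metabolism, response and transport, 1 was called (5.26%, against 4.36% of all genes tested). The median of all genes tested was 0.04. Of 33 targets of the amino acid response under ATF4, 31 were on the array and 13 were measured, of which 0 were higher and 1 was lower, with a list median of -0.07. The lower one was Vldlr, a lipoprotein receptor, with -0.50 and -0.54 (adjusted p = 0.0184), measured on 7 of the 20 arrays. Ddit3, the stress-induced transcription factor CHOP, had 0.42 and 0.14 (adjusted p = 0.252). In glutamine and glutamate metabolism 0 of 5 measured genes passed. Their means ran from -0.17 for Ppat, the amidotransferase that opens purine synthesis with glutamine nitrogen, to 0.11 for Gad1, a glutamate decarboxylase. The same was so for 0 of 5 amino acid transporters, among them both chains of the large neutral transporter, Slc7a5 with 0.18 and 0.17 and Slc3a2 with 0.14 and 0.16. Asns, asparagine synthetase, and Glul, glutamine synthetase, each had a probe with no value on any array. The glutamine carriers had little data, as Slc1a5 had -0.35 on array 1 alone and Slc38a2 had no value at time point 2.

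Among 56 measured genes of carbon, lipid and nucleotide metabolism, 2 were called higher and 1 lower, a share of 5.36% near the 4.36% of all genes tested. Slc16a3, the lactate exporter MCT4, had 0.42 and 0.79 (adjusted p = 0.0059), and it was the 1 gene of 10 measured in glycolysis to pass, while the list median was -0.18. Sucla2, a succinyl-CoA ligase subunit of the tricarboxylic acid cycle, had 0.46 and 0.58 (adjusted p = 0.0173) and was 1 of 12 there, at a list median of 0.03. In oxidative phosphorylation 0 of 12 passed, with the complex I subunits Ndufb2 at -0.26 and -0.67 (adjusted p = 0.0519) and Ndufb5 at 0.36 and 0.42 (adjusted p = 0.0875) at either end. None of 8 genes of fatty acid oxidation passed, with the dehydrogenase Acads at 0.35 and 0.37 (adjusted p = 0.127) and the electron carrier Etfa at -0.20 and -0.21 (adjusted p = 0.396), and none of 3 of gluconeogenesis and glycogen. These 3 were Pcx, Gys2 and Gbe1, and their means lay between 0.20 and 0.30. Among 6 genes of lipid and sterol synthesis, Fdft1, squalene synthase, was lower with -0.40 and -0.56 (adjusted p = 0.0340), measured on 8 of the 20 arrays. None of 5 genes of purine and pyrimidine synthesis passed (median -0.10), and Umps, which makes uridine monophosphate, had -0.07 and -0.43 (adjusted p = 0.297).

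Of 40 measured genes in the stress and signalling lists, 2 were called higher and 3 lower (12.5%, against 4.36% of all genes tested). These lists were written with earlier results known, so the share is a description. Hspa5 was the only one of 9 measured endoplasmic reticulum chaperone genes past the test, the list median was -0.10, and after block centring Hspa5 was at 0.58 with an adjusted p of 0.115. None of 10 measured members of the cytosolic chaperone list passed, and the co-chaperone Dnajb6, called higher, is not in that list. Hspa8, the constitutive Hsp70, had 0.35 and 0.22 (adjusted p = 0.235), and Cct6a, a chaperonin subunit, had -0.32 and -0.20 (adjusted p = 0.263). In the antioxidant list Gpx4, which reduces lipid peroxides, was lower with -0.39 and -0.57 (adjusted p = 0.0389), 1 of 8. In the hypoxia list Fam162a was lower with -0.43 and -0.62 (adjusted p = 0.0406), 1 of 6. The immediate early list had a call in each direction among 5 genes. Jun, a subunit of AP-1, had -0.26 and -0.75 (adjusted p = 0.0225), and Gadd45b, a growth arrest gene, had 0.46 and 0.42 (adjusted p = 0.048). Gadd45b was also the 1 call among 3 measured genes in the list of p53 targets and growth arrest.

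Of 118 measured genes of growth, the cytoskeleton and protein turnover, 4 were called higher and 0 lower (3.39%, near the 4.36% of all genes tested). They were Ndc80, a kinetochore gene, with 0.67 and 0.34 (adjusted p = 0.0207, 1 of 21 cell cycle genes), and Eef2, the elongation factor that moves the ribosome, with 0.41 and 0.57 (adjusted p = 0.0272, 1 of 15 translation factors). Psma7, an alpha subunit of the proteasome core, had 0.22 and 0.70 (adjusted p = 0.0393, 1 of 12), and Actn4, an actin cross-linker, had 0.61 and 0.49 (adjusted p = 0.0113, 1 of 19 cytoskeleton genes). None of the 39 measured ribosomal protein genes passed, at means from -0.35 for Rpl24 to 0.39 for Rpl36 and a median of 0.04. Ribosomal proteins were measured more often than other genes, with 39 of 59 on the array (66.1%) against 4280 of 13405 genes with a symbol (31.9%). None of 12 lysosome and autophagy genes passed, with the autophagosome gene Map1lc3b at -0.48 and -0.24 (adjusted p = 0.117) and the lysosomal carboxypeptidase Ctsa at -0.31 and -0.02 (adjusted p = 0.526). Of the 13 called members of all lists, 6 still passed after block centring, and Eef2, Fam162a, Gpx4, Hspa5, Jun, Psma7 and Sucla2 did not.

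**Figure D3:**
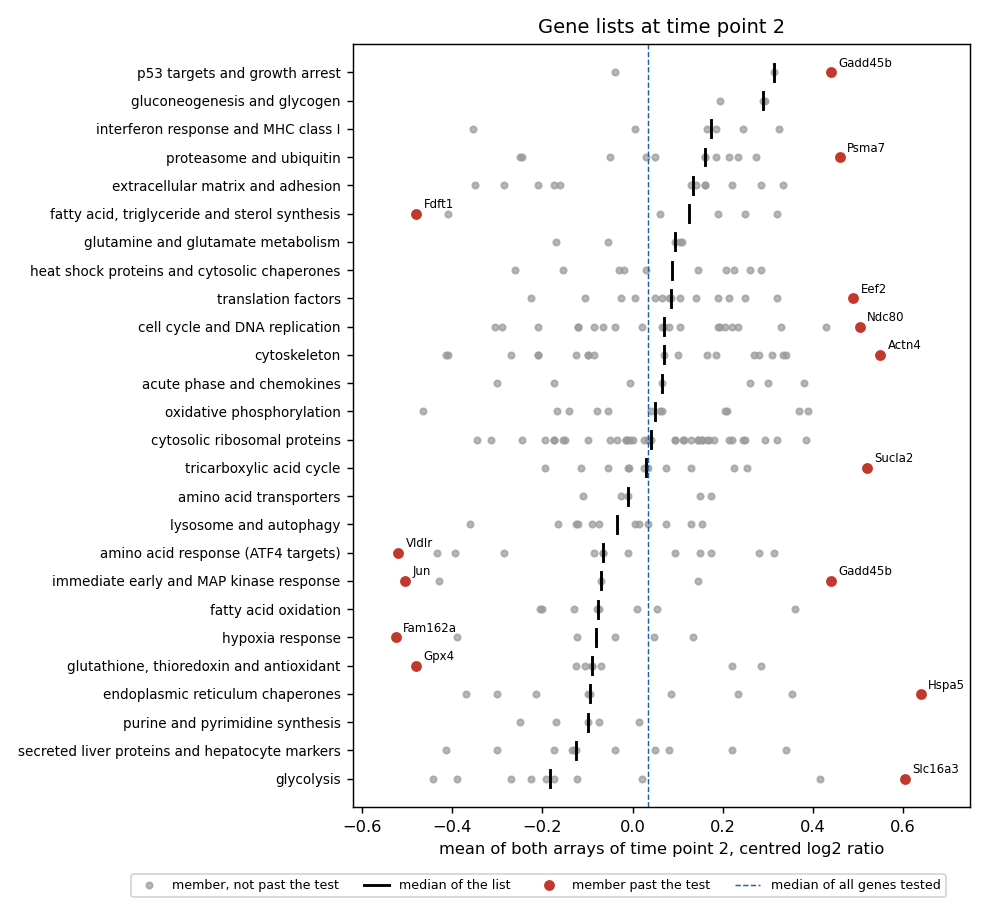
Mean centred log2 ratio of both arrays for the measured members of each gene list, with red points for members past the test, a black bar for the list median and a dashed line for the median of all genes tested, 0.04. The lists hold at most 2 called members each, and most medians lie within 0.2 of 0.

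Of 45 measured genes in the liver and cell type lists 0 were called, where 4.36% of all genes tested were. None of 11 secreted liver proteins and hepatocyte markers passed (median -0.13), and the keratin genes of simple epithelium had 0.34 on both arrays for Krt18 (adjusted p = 0.144) and -0.13 and -0.70 for Krt8 (adjusted p = 0.0799). None of 7 acute phase and chemokine genes passed, and Hp, haptoglobin, had 0.27 and 0.49 (adjusted p = 0.0905) and the growth factor Csf1 0.45 and 0.15 (adjusted p = 0.204). Nor did any of 12 extracellular matrix genes, among them the integrin chains Itgav with 0.28 and 0.39 and Itgb1 with -0.37 and -0.33. The same was so for 6 interferon and MHC class I genes, with Mx1 at 0.31 and 0.34 and Ifi35 at -0.20 and -0.51. Of the markers of other liver cells, 1 of 12 for macrophages was measured, Aif1 with 0.50 and 0.24, and 6 of 11 for stellate cells, 2 of 9 for endothelium and 3 of 6 for cholangiocytes, none of them called. Markers with the largest means were Pdgfrb (-0.38) and Dcn (0.23) for stellate cells, Kdr (0.30) and Cdh5 (0.01) for endothelium, and Krt7 (0.22) and Sox9 (0.14) for cholangiocytes. Ratios do not show the level of a marker, so the identity of the line could not be checked from these arrays.

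Setting time point 2 against the mean of time points 1, 3, 4, 7, 8 and 9, in which a steady dye preference cancels, 11 of 3765 genes were higher (0.292%) and 0 lower (0%) in limma at an adjusted p under 0.05. At an unadjusted p under 0.05 there were 147 higher and 40 lower. Of the 211 genes called against 0, 140 could be compared in this way and 4 were called. Of these 140, 99 had a mean of the same sign at all 6 other time points as at time point 2. This was not counted over all genes tested. Nfia was such a gene, with 0.81 at time point 2 against 0.74 for the other time points (0.54 to 0.93), and Pacc1 had -0.96 against -0.88 (-1.24 to -0.20). Hspa5 had 0.64 against 0.39, a difference of 0.25 that did not pass (limma, adjusted p = 0.998). Its means at time points 1, 3, 4, 7, 8 and 9 were 0.195, 0.72, 0.98, -0.815, 0.26 and 0.995.

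Lmnb1 had the largest difference, 0.86 with a standard error of 0.154 (adjusted p = 0.00106). Its values were 0.54 and 0.92 at time point 2, and means at time points 1, 3, 4, 7, 8 and 9 were 0.03, 0.42, 0.17, -1.40, -0.26 and 0.24. Among the time points compared, time point 2 was thus the highest and time point 7 far below the rest. Dzip3, a ubiquitin ligase, had 0.00 and 0.50 at time point 2 and means of -0.58, -0.11, -0.62, -1.32, -0.11 and -0.28 at the others, a difference of 0.75 (adjusted p = 0.00555). Cxcl16, a chemokine that also serves as a scavenger receptor, had -0.05 and 0.21 at time point 2. Its means of -0.74, -0.50, -0.80, -0.85, -0.46 and -0.32 at the other 6 all lay lower, a difference of 0.69 (adjusted p = 0.0141). In both genes the mean at time point 2 was above 0 and the means at these 6 time points were below 0. Neither passed the limma test against 0 at time point 2 (adjusted p = 0.295 for Dzip3 and 0.788 for Cxcl16). Outside the comparison, the single array of time point 5 gave 0.92 for Lmnb1 and 1.33 for Dzip3, above their means at time point 2. Cxcl16 had 0.24 at time point 10. Time point 6, also outside the comparison, gave -1.36 for Lmnb1, -1.76 for Dzip3 and -1.36 for Cxcl16. The value of Lmnb1 was near that at time point 7, and those of Dzip3 and Cxcl16 were below it. Mtmr9, a phosphatase-like protein without catalytic activity, had -1.11 and -0.28 at time point 2 and means of -1.60, -1.63, -2.51, -1.93, -0.44 and -0.74 at the other 6, a difference of 0.78 (adjusted p = 0.0260). Its mean at time point 2, -0.70, was below that at time point 8. Outside the time points compared, Mtmr9 had 0.39 at time point 5, -1.76 at time point 6 and 0.95 at time point 10.

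Psma7 had 0.46 at time point 2 against -0.14 for the others (difference 0.60, adjusted p = 0.0493). Its means at time points 1, 3, 4, 7, 8 and 9 were -0.35, 0.21, -0.67, -0.12, 0.22 and -0.17. Slc44a4, a choline transporter-like protein, had 0.23 and 0.74 against -0.20 (difference 0.68, adjusted p = 0.0254). Zswim8, a ubiquitin ligase adaptor in target-directed microRNA decay, had 0.15 and 0.77 against -0.22 (difference 0.68, adjusted p = 0.0493). In these 3 genes array 2 was well above array 1. Septin5, a filament-forming GTPase, had 0.14 and 0.61 against -0.28 (difference 0.65, adjusted p = 0.0314). On the single array of time point 5, outside the comparison, Slc44a4 had 0.97 and Septin5 0.52, above their means at time point 2. Psma7 had 0.18 there, below its mean at time point 2. At time point 6, also outside the comparison, Slc44a4 had -1.14, Septin5 -1.1 and Psma7 -0.52.

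For the last 3 genes the difference went with time point 7. Cnih2, a cargo receptor of the cornichon family, had 0.21 and 0.30 at time point 2 and -2.08 and -1.73 at time point 7 (difference 0.68, adjusted p = 0.0141). Phactr3, a regulator of protein phosphatase 1 and actin, had 0.22 and 0.11 against -2.33 and -2.94 (difference 0.64, adjusted p = 0.0324), and its mean of 0.29 at time point 1 was above that at time point 2, 0.17. 2310057M21Rik had 0.27 and 0.39 against -2.35 on the single array with a value at time point 7 (difference 0.76, adjusted p = 0.00555). All 3 were within 0.4 of the array median at time point 2. On the single array of time point 5, outside the comparison, each was above its mean at time point 2. The values there were 0.54 for Cnih2, 0.38 for Phactr3 and 0.65 for 2310057M21Rik. Leaving out time point 7 left 0 of the 11 calls (136 genes at an unadjusted p under 0.05), and leaving out array 2 also left 0 (70 genes at an unadjusted p). After block centring 3 were called, Lmnb1, Dzip3 and 2310057M21Rik.

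**Figure D4:**
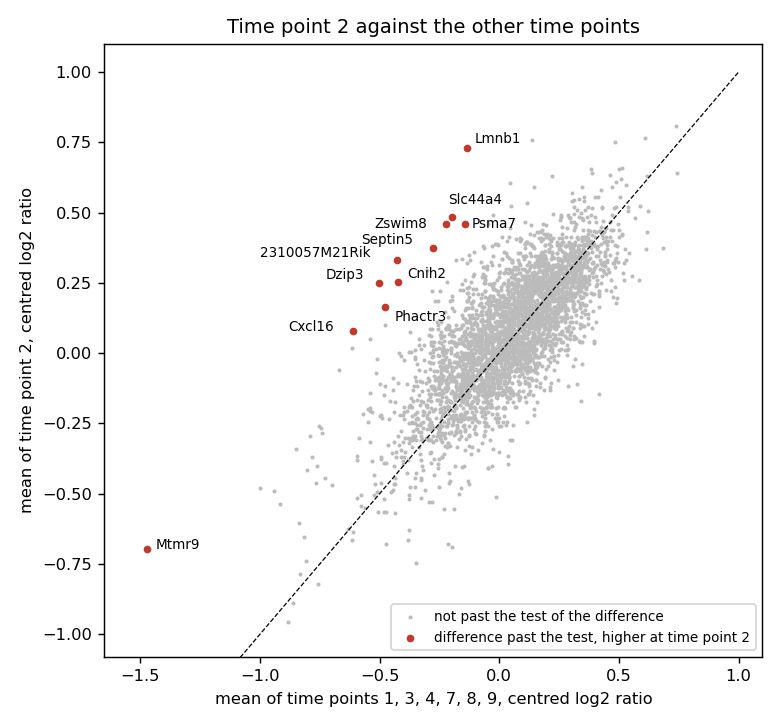
Each point is a gene, with its mean over time points 1, 3, 4, 7, 8 and 9 along x and its mean at time point 2 along y, as centred log2 ratios. The dashed line marks equal values, and the 11 genes past the test of the difference, in red, all lie above it.

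**Figure D5:**
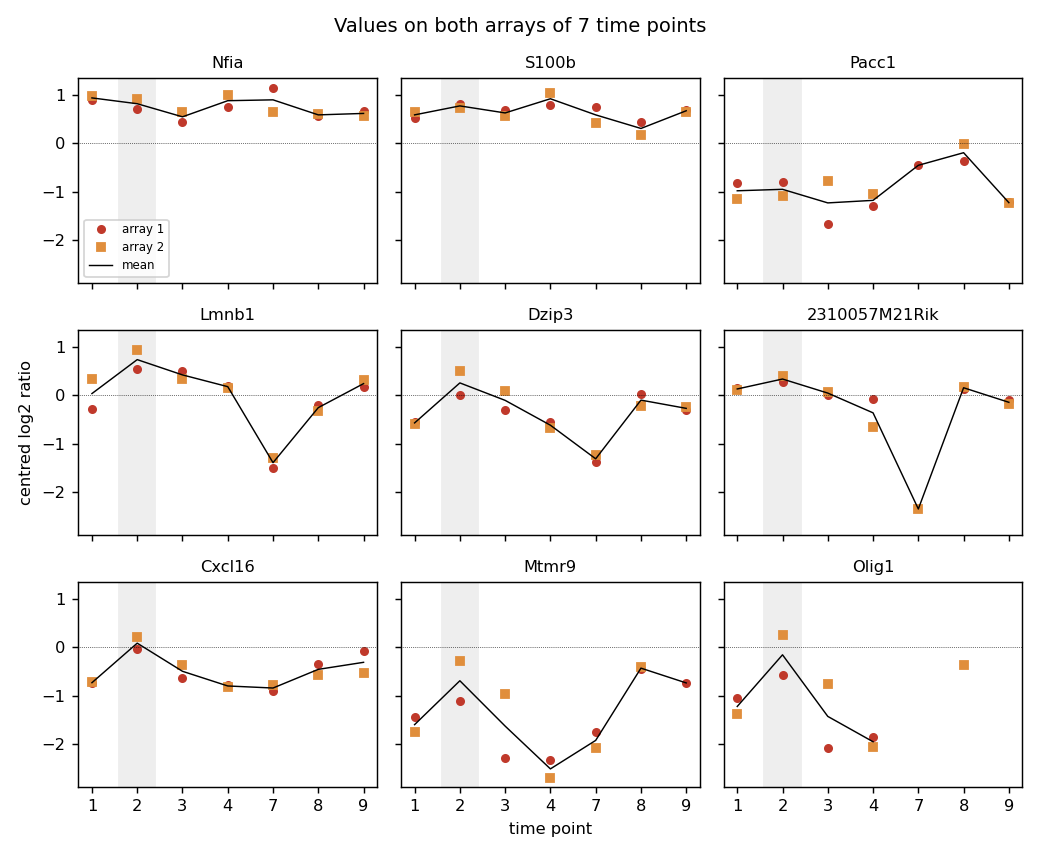
Centred log2 ratios of 9 genes on array 1 (circles) and array 2 (squares) at the 7 time points with paired arrays, evenly spaced, with a line through the means and time point 2 shaded. Nfia, S100b and Pacc1 keep their sign across time points, while Lmnb1, Dzip3 and 2310057M21Rik reach their lowest value at time point 7.

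Against time point 1, sampled before it, 11 of 4773 genes were higher at time point 2 (0.23%) and 0 lower, with 187 higher and 130 lower at an unadjusted p under 0.05. Polr2k, a small subunit shared by the RNA polymerases, had the largest difference at 1.24 (adjusted p = 0.00736), with 0.25 and 0.08 at time point 2 against -0.23 and -1.92 at time point 1. Apoo, a mitochondrial inner membrane protein, had -1.22 and -0.14 against a single value of -1.79 (difference 1.11, adjusted p = 0.0483). Both differences therefore lean on a single array of time point 1. Apoo had a value on 7 of the 20 arrays. Septin5 had 0.14 and 0.61 against -0.43 and -0.62 (difference 0.90, adjusted p = 0.0331), and unnamed probe 3972 had -0.15 and 0.41 against -0.65 and -1.15 (difference 1.03, adjusted p = 0.0126). Values of the 2 time points did not overlap in either, which choosing genes by the largest difference largely sets. The share of such genes among all tested was not counted. Npff (difference 0.87), Dzip3 (0.83), Cxcl16 (0.82) and Psma7 (0.81) were also among the 11. None of the 11 was called after block centring (337 genes at an unadjusted p), with array 2 left out (100) or with the replicate block (289).

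Against time point 3, sampled after it, 1 of 4704 genes was called (0.0213%), with 97 higher and 129 lower at an unadjusted p under 0.05. It was Olig1, a transcription factor known from the oligodendrocyte lineage. Olig1 had -0.57 and 0.25 at time point 2 against -2.09 and -0.77 at time point 3, a difference of 1.27 (adjusted p = 0.00324), and -1.06 and -1.39 at time point 1, a difference of 1.07 (adjusted p = 0.0327). Its values at time point 2 lay above those of both neighbours, which choosing it by this difference largely sets. It had a value on 9 of the 20 arrays. The call against time point 3 was absent after block centring, where 0 genes were called (186 at an unadjusted p), and without array 2 (126), and the numbers of calls ran from 0 to 8 when an array or another time point was left out. These comparisons share the arrays of time point 2.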

How the data were processed

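RNA of 20 arrays was measured as 2-colour ratios, and the deposited values, per the labels and the values themselves, are taken as log2 ratios of channel 1 over channel 2, with base and direction not stated. Background correction, normalization and the rule for blank spots are not given in the sources used here, and spot intensities were not used here. Each array was centred on its median and probes of 1 symbol were averaged. Of 14719 probes listed in the platform annotation 14718 had 1 symbol and 1 several, and 14450 matched a RefSeq gene table (GRCm38.p6). A mean per time point was fitted with limma 3.58.1 in R 4.3.3 to the 14 arrays of time points 1, 2, 3, 4, 7, 8 and 9, with the variance moderated over 4837 genes (at most 7 residual and 71.5 prior degrees of freedom) and Benjamini-Hochberg adjustment. Arrays of other time points were single or unlike their partner. The label of channel 2 of 1 array of time point 4 names cells without glutamine, and the fits were repeated without that time point. The number of arrays limits precision.

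The members and lists were chosen with earlier results of these data known. Genes named are the 15 highest and 15 lowest called with 1 sign on both arrays, the 10 highest or lowest called against the other time points and the 5 against time points 1 and 3, in every list its 4 largest calls or, with no call, its 2 largest means, the 5 with the largest difference between arrays, and Slc1a5, Slc38a2, Ddit3, Glul and Asns. A gene of the fixed names is not reported here. Psma7, named in the differences, enters through its list. The figures were drawn with matplotlib 3.10.9 in Python 3.11.15. The scripts were tested on simulated data.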

Additional observations from a re-analysis of the deposited data

Results flagged for a closer look

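Genes whose ratio at time point 2 differed from that at other time points by a test of the difference itself (limma, adjusted p under 0.05) are given here for the 10 and 5 largest differences, which leaves out 1 of the 11 called against the other time points and 6 of the 11 called against time point 1. Against the mean of time points 1, 3, 4, 7, 8 and 9 the differences, all higher at time point 2, were 0.86 for Lmnb1, 0.78 for Mtmr9, 0.76 for 2310057M21Rik, 0.75 for Dzip3, 0.69 for Cxcl16, 0.68 for Slc44a4, 0.68 for Zswim8, 0.68 for Cnih2, 0.65 for Septin5 and 0.64 for Phactr3. Against time point 1 they were 1.24 for Polr2k, 1.11 for Apoo, 1.07 for Olig1, 1.03 for unnamed probe 3972 and 0.90 for Septin5. Against time point 3 the difference was 1.27 for Olig1.

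Array 2 gave the higher value in all of these except Polr2k and Phactr3. The mean of time point 7 lay below that of time point 2 in each of these 10 genes and in Psma7, which was also called against the other time points. The part of these arrays in the differences was not tested beyond leaving them out.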

How the results depend on the processing

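Counts of called genes moved with the arrays and the scaling used. Of the comparison with 0 (211 calls), 0 remained when all 20 arrays or only the 2 arrays of time point 2 gave the spread (542 and 978 genes at an unadjusted p under 0.05 in limma), 2337 genes were called without centring and 530 after quantile normalization. Leaving out an array or a time point gave between 1 and 233. The replicate block gave 150. Of the difference from the other time points (11 calls), 0 remained with all 20 arrays (80 at an unadjusted p) and without centring (150), 1 after quantile normalization, 3 after block centring, 5 with the replicate block, and 0 to 21 with an array or time point left out, 0 without time point 7. Of the difference from time point 1 (11 calls), 0 remained with all 20 arrays (124), block centring (337), no centring (283), quantile normalization (338) and the replicate block (289), 2 when the variance was moderated over the genes of that comparison, and 0 to 18 with an array or time point left out. Of the difference from time point 3 (1 call), 0 remained with all 20 arrays (93), block centring (186), no centring (214), and quantile normalization (296). Filters for genes on all 14 (122) or 12 or more arrays (169) also gave 0, but they leave out the called gene, Olig1, so these say nothing of its stability. It gave 8 when moderated by itself and 0 to 8 with an array or time point left out. The numbers in parentheses are genes at an unadjusted p under 0.05. The causes were not tested.

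The replicate block sets arrays titled r against the others. The r shares only a number, not a known culture, so its effect is given as counts alone. The correlation of the arrays was 0.520, and 0.231 with the other time points subtracted. Sass6 ranged from -1.66 to 0.28 and Zfp959 from -1.49 to 0.13 when an array was left out. Leaving out time points 1, 3, 7, 8 or 9, moderation by comparison and the fit to 18 arrays were chosen after seeing the data. Depth cannot be given for arrays, and probes without a value set no bound.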

Other observations

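Promoter windows of 300 bases were found for 64 higher genes (82 windows), 87 lower genes (117 windows) and 3404 of all genes tested (4359 windows). The core of the amino acid response element, TGATGNAA, was in 0 of 82 windows of the higher genes, 3 of 117 of the lower genes (2.56%) and 2.39% of windows of all genes tested. The cyclic AMP response element, TGACGTCA, was in 2 of 82 (2.44%), 1 of 117 (0.855%) and 2.59%. The E-box CACGTG was in 7 of 82 (8.54%), 6 of 117 (5.13%) and 8.60%, and TATAAA in 14 of 82 (17.1%), 13 of 117 (11.1%) and 10.1%. These are descriptions of letters, and some genes contribute several overlapping windows.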
